A study of Mus musculus with 2 samples.

Results

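The Ifit gene cluster (interferon-induced proteins with tetratricopeptide repeats) was followed through its 6 genes Ifit2, Ifit3, Ifit1bl1, Ifit3b, Ifit1bl2 and Ifit1, out of 55536 genes in the tables. The 6 were found by their symbols in the target names of a deposited transcript table, and the gene identifier given there was then looked up in the other tables. RNA came from C57BL/6J mouse bone-marrow-derived macrophages, as total RNA depleted of ribosomal RNA from the nuclear fraction. The cells were exposed for 12 h to 100 ng/ml Lipid A, the membrane anchor of lipopolysaccharide and the ligand of TLR4. After a 12 h wash, Lipid A was given once more, at 100 ng/ml and for 10 min. The single group held 2 libraries, replicates 1 and 2. Both carry the same donor identifier, and the labels do not say whether they came from separate cultures or animals, so the spread between them may be technical. Untreated cells and other cell fractions were not used here, so no value here is a response to Lipid A.

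Ifit proteins are among the most strongly interferon-induced proteins of vertebrate cells. They are built from tetratricopeptide repeats, helical units that let them bind RNA and one another. Ifit1 holds RNA whose cap lacks the ribose methyl group that the cell adds to its own messengers, and so blocks translation of foreign RNA. Lipopolysaccharide reaches these genes through TLR4, the adaptor TRIF and the transcription factor IRF3, and through the interferon-β that macrophages then secrete. Interferon acts through ISGF3, a transcription factor complex that includes STAT2 and IRF9. Both IRF3 and ISGF3 bind the interferon-stimulated response element (ISRE), a DNA motif with a pair of GAAA units.

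The 6 genes lay side by side on chromosome 19 (mm10, 34550694 to 34650009), over 99.3 kb. Ifit2 (ENSMUSG00000045932.12, 34550694 to 34576419), Ifit3 (ENSMUSG00000074896.3, 34583531 to 34588731), Ifit3b (ENSMUSG00000062488.9, 34607970 to 34613401) and Ifit1 (ENSMUSG00000034459.8, 34640871 to 34650009) were annotated on the plus strand. Ifit1bl1 (ENSMUSG00000079339.7, 34592891 to 34601956) and Ifit1bl2 (ENSMUSG00000067297.5, 34617049 to 34640743) were on the minus strand. Ifit1 and Ifit1bl2 started 128 bases apart and pointed away from each other.

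The DNA before the genes is shown first because the ISRE is the best known feature of this family. RefSeq promoter windows (build GRCm38.p6, 250 bases before to 50 after a start) matched all 6 genes, with 9 windows in all. Each sequence is given 5′ to 3′ on the strand of its gene up to the base before its RefSeq start, the last being the stretch between a pair of starts, and capitals mark the motif searched, which is GAAA, any 2 bases and GAAA, read on either strand. On the opposite strand it reads as a pair of TTTC units.
Ifit2, chr19:34550444-34550693, plus strand: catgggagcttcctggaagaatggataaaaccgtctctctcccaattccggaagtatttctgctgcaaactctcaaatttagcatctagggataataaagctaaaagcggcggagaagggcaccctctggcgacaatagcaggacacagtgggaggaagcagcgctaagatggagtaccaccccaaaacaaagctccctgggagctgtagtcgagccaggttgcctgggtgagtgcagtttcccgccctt
Ifit3, chr19:34583279-34583528, plus strand: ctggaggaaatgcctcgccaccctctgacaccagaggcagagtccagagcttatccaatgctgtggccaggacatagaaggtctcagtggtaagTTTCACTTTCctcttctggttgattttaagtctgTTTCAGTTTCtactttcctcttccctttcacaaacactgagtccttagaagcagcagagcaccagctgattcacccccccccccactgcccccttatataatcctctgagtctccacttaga
Ifit3b, chr19:34607707-34607956, plus strand: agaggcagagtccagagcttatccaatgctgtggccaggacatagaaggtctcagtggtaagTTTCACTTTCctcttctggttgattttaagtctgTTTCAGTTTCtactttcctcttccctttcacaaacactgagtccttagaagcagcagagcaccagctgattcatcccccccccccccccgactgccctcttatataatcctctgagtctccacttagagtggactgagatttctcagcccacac
Ifit1bl1, chr19:34601969-34602218, minus strand: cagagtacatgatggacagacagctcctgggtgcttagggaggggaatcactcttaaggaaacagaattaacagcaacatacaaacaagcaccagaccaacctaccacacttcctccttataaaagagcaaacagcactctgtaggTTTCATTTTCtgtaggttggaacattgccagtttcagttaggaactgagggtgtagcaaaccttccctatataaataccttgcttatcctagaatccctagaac
Between Ifit1bl2 and Ifit1, chr19:34640744-34640870, plus strand: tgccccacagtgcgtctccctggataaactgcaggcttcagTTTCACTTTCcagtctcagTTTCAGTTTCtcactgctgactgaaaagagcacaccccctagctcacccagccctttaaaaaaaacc

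The exact motif stood in a window of 5 of the 6 genes and in 6 of the 9 windows. Among all 32851 promoter windows of that length in the RefSeq table, 3.44% held it, as did 3.99% of the 27025 genes with a window. Ifit3 carried 2 matches, 156 to 147 and 122 to 113 bases before its start, and Ifit3b carried the same pair of 10-base strings 188 to 179 and 154 to 145 bases before its start. The windows of these copies were 96.4% identical over 224 aligned bases. Ifit1bl1 has 2 annotated starts, and the same string TTTCATTTTC lay 104 to 95 bases before the one shown and 23 to 14 bases before the other. The windows of its starts were 96.1% identical over 129 aligned bases.

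Ifit1 and Ifit1bl2 shared 1 pair of matches, which stands in the short stretch between the Ifit1 start and the nearer Ifit1bl2 start. Counted from the RefSeq start of Ifit1 the pair lay 104 to 95 and 85 to 76 bases before the start. From the nearer start of Ifit1bl2 the pair lay 51 to 42 and 70 to 61 bases before. Ifit1bl2 has another RefSeq start, at 34629811, and its window held no exact match. Neither window of Ifit2 held the exact motif. With 1 mismatch allowed all 6 genes had a match, but so did 38.9% of all genes with a window. Within the 100 bases nearest a start, 3 genes had an exact match, against 1.14% of all genes with a window. These were Ifit1 and Ifit1bl2, through matches that they share, and Ifit1bl1, through its RefSeq start at 34599427 only. The quantified transcript near that start, Ifit1bl1-201, begins farther downstream, at 34599327. A pattern like a site of NF-kB, which is GGG, any 5 bases and CC, matched in 4 of the 6 genes and in 53.5% of all genes with a window. TATAAA, the TATA box, matched only in Ifit1bl1 and Ifit1bl2 among the 6 genes, and in 15.7% of all genes with a window. For Ifit1bl2 it matched only in the window of the start at 34629811. Both strands were searched for each pattern, and a match describes letters, not a bound site.

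Replicate 1 held 24444219 expected counts on genes and replicate 2 held 18051097. Levels are given as TPM, transcript abundance divided by length and scaled to a fixed total, which allows genes to be compared. A gene was called detected where both libraries gave it 10 or more expected counts and a TPM of 1 or more. All 9 macrophage markers examined were detected. None of 4 B cell, 4 T cell, 5 neutrophil, 5 dendritic cell and 4 fibroblast markers was, and their TPM summed to at most 1.76 for any type in a library, with 3 of the B cell markers listed at 0 in both. In bulk RNA, fewer cells carrying a transcript and less of it per cell cannot be told apart.

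Of the 6 Ifit genes, 5 were detected, and 42.9% of all 22028 protein-coding genes passed the same limits. The summed TPM of the 6 was 1396 in replicate 1 and 1053 in replicate 2, a mean of 1225 ± 243 (SD, n = 2). These transcripts took 0.607% of all gene counts in replicate 1 and 0.444% in replicate 2. The median TPM of detected protein-coding genes was 7.99.

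**Figure D1:**
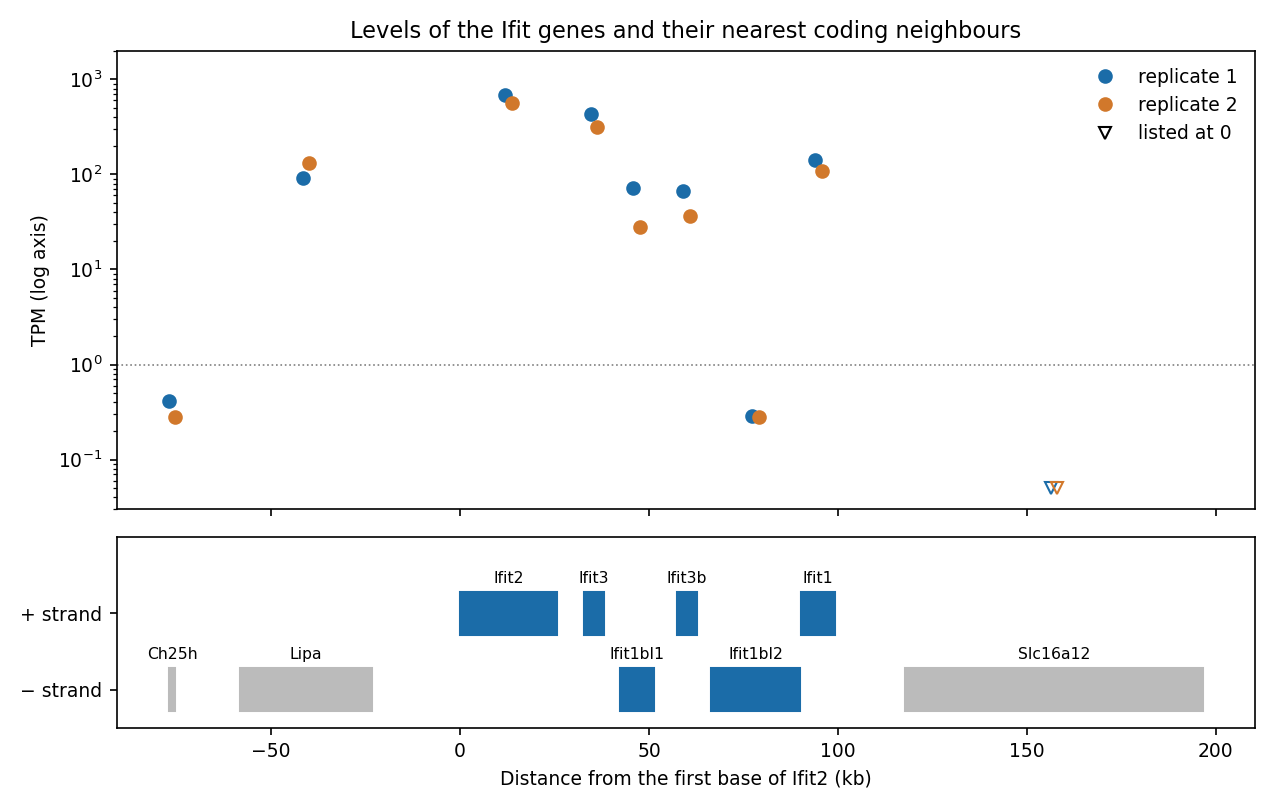
The upper panel plots TPM (log axis) of each Ifit gene and of the nearest coding neighbours, with 1 point per library (blue, replicate 1; orange, replicate 2) drawn at the middle of the gene; the dotted line is a TPM of 1. The lower panel draws the genes to scale by strand, with distance in kb from the first base of Ifit2. The 5 detected Ifit genes stand between 28.2 and 689 TPM, and Ifit1bl2 lies under the line beside Ifit1.

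Ifit2, which protects mice from infection of the brain by several viruses, was the highest member. Its level was 689 TPM in replicate 1 and 561 in replicate 2 (625 ± 90.4, SD, n = 2), resting on 98417 and 56008 expected counts. It ranked 25 and 27 among the 22028 protein-coding genes. Ifit3, which forms complexes with Ifit2, stood at 428 and 318 TPM (373 ± 77.8, SD, n = 2), ranks 41 and 48, from 25948.5 and 13434 expected counts. Both libraries put Ifit2 above Ifit3, by 1.61-fold in replicate 1 and 1.77-fold in replicate 2.

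Ifit1, the binder of incompletely methylated caps, was next at 141 TPM in replicate 1 and 109 in replicate 2 (125 ± 22.5, SD, n = 2). It ranked 156 and 230, with 13639.9 and 7363 expected counts. Ifit2 exceeded it by 4.89-fold and 5.15-fold. The 3 best known members thus kept one order in both libraries, and their ranges did not overlap.

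Ifit3b, the near-identical neighbour copy of Ifit3, stood at 66.1 TPM in replicate 1 and 36.6 in replicate 2 (51.4 ± 20.9, SD, n = 2). Ifit1bl1, a gene resembling Ifit1, was at 72.1 and 28.2 TPM (50.1 ± 31.0), from 5668 and 1546 expected counts. Those of Ifit3b were 4679 and 1807. Their order turned between libraries, since Ifit1bl1 was 1.09 times Ifit3b in replicate 1 and 0.770 times in replicate 2. The levels of this pair did not differ beyond their spread, and both lay below Ifit1 in each library.

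Ifit1bl2, the other gene resembling Ifit1, was not detected by these limits. Its CPM, the count scaled to the library's gene total with no division by length, was 1.48 in replicate 1 and 1.33 in replicate 2, so a limit of 1 CPM would count it as detected. It stood at 0.290 TPM in replicate 1 and 0.280 in replicate 2, from 36.1 expected counts (exact 95% Poisson interval 25.3 to 50) and 24.0 (15.4 to 35.7). These intervals cover counting error only. Ifit1, whose start lies 128 bases away, was 486-fold higher in replicate 1 and 389-fold in replicate 2. The second deposited quantification, made directly from reads and called the other quantification here, gave Ifit1bl2 more, 165 and 78.2 counts, and put Ifit1 119-fold and 154-fold above it. The large gap between these neighbours stood in both quantifications, but its size differed by over 2-fold.

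Absolute TPM depended on the quantification, and the order of the members less so. In the other quantification Ifit2 reached 235 TPM in replicate 1 and 272 in replicate 2, Ifit3 at 148 and 153, and Ifit1 at 49.6 and 50.1. Ifit3b was at 23.2 and 20.2 TPM and Ifit1bl1 at 25 and 13.2. The sum of the 6 genes there was 482 and 508 TPM (495 ± 18.9, SD, n = 2). Ifit2, Ifit3 and Ifit1 kept their places in both libraries, and Ifit3b and Ifit1bl1 again changed order between them. The summed TPM was higher in replicate 1 in the gene tables and higher in replicate 2 in the other quantification.

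As shares of the family's summed TPM, Ifit2 held 51.3% ± 2.79 (SD, n = 2), Ifit3 30.4% ± 0.327 and Ifit1 10.2% ± 0.183. Ifit3b held 4.11% ± 0.890 and Ifit1bl1 3.92% ± 1.76. Ifit1bl2 held 0.0237% ± 0.00411. The shares of Ifit3 and Ifit1 differed little between libraries, while the SD of the Ifit1bl1 share was the largest for its size among the detected members. In the other quantification the mean shares were 51.1% for Ifit2, 30.4% for Ifit3, 10.1% for Ifit1, 4.40% for Ifit3b, 3.9% for Ifit1bl1 and 0.0751% for Ifit1bl2. Shares of expected counts, which favour long transcripts, put Ifit2 at 68.1% and Ifit3 at 17.1%.

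**Figure D2:**
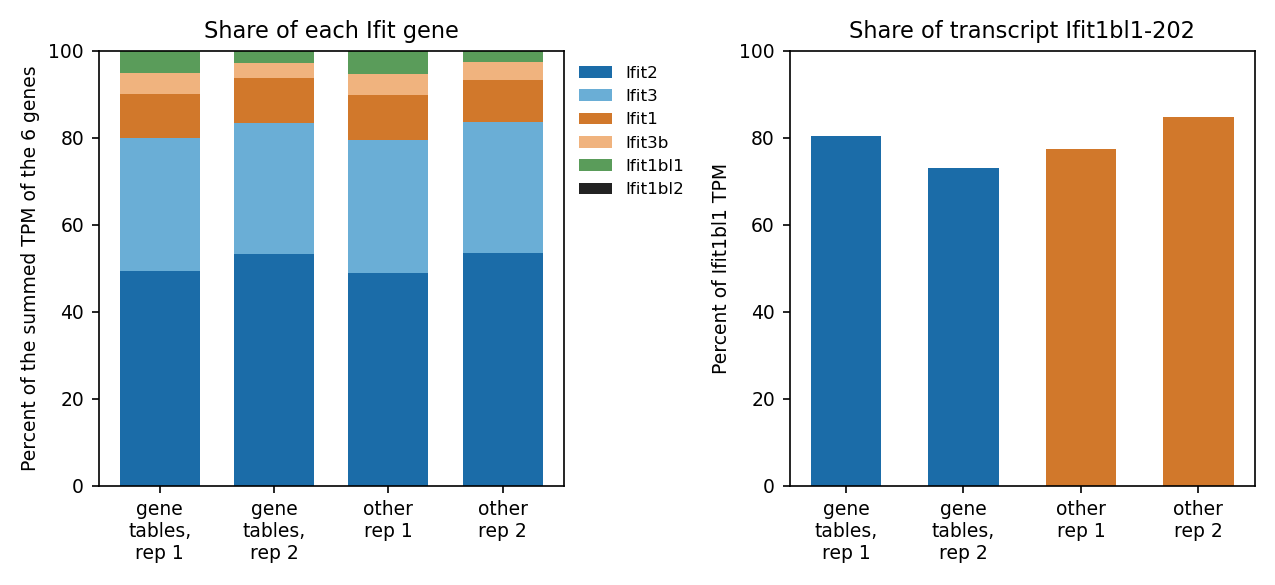
The left panel stacks the percent of the summed TPM of the 6 genes held by each Ifit gene, in each library (rep) and each quantification, where the 0.0237% of Ifit1bl2 is too thin to see. The right panel gives the percent of Ifit1bl1 TPM assigned to its transcript Ifit1bl1-202; the gene tables put it lower in replicate 2 (73.0% against 80.3%) and the other quantification puts it higher (84.8% against 77.4%).

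How far reads can be assigned to a member depends on how alike the copies are. Over the coding sequence, Ifit3 and Ifit3b were 99.1% identical, with 11 mismatches and no gaps over 1209 bases each. Ifit1bl1 and Ifit1bl2 were 87.4% identical, and Ifit1 was 74.0% identical to Ifit1bl1 and 73.8% to Ifit1bl2. The remaining pairs lay between 51.9% and 56.5%. Gap positions counted as differences in these values, and Ifit1 with Ifit3, for example, had 365 mismatches and 334 gap positions. The family therefore held a nearly duplicated pair, a looser trio and Ifit2, which had no close copy.

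**Figure D3:**
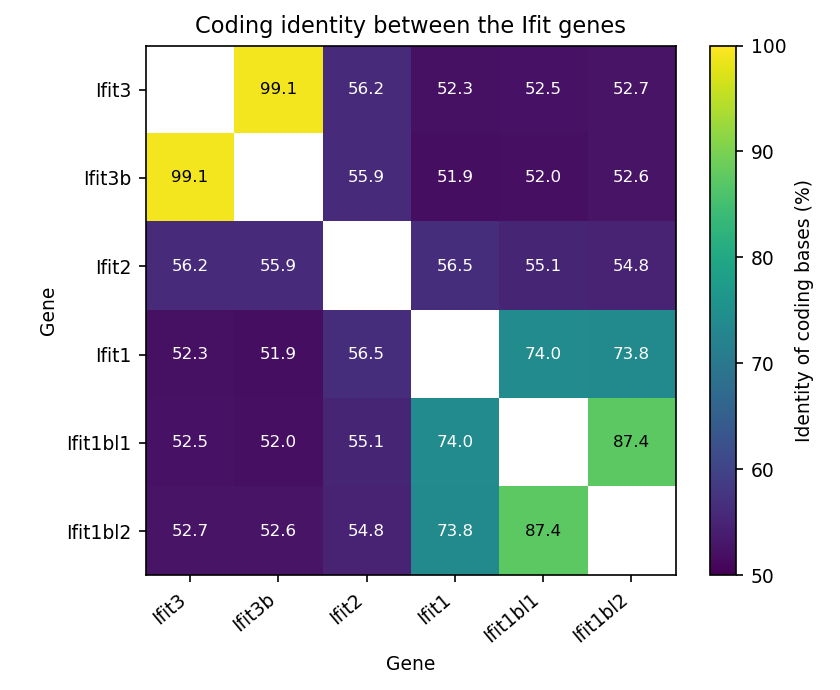
Percent identity over the end-to-end alignment of the coding sequences for each pair of Ifit genes, with gap positions counted as differences. It is written in each cell and coloured on the scale at the right. Ifit3 with Ifit3b (99.1%) and the trio of Ifit1, Ifit1bl1 and Ifit1bl2 (73.8% to 87.4%) stand out from the other pairs.

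Of the 50-base strings in the Ifit3 transcript, 51.2% also occurred in Ifit3b, and 31.7% of its 100-base strings did. For Ifit3b, 44.5% of 50-base strings occurred in Ifit3. Ifit1 shared 7.13% of its 50-base strings with other genes, mostly Ifit1bl2, and Ifit2 shared none. Reads from the identical stretches of Ifit3 and Ifit3b cannot be divided with certainty, so the split of that pair is uncertain. The deposited SD of the count from assigning reads was small all the same, 25.4 counts in replicate 1 and 14.9 in replicate 2 for Ifit3 and for Ifit3b. The other quantification put Ifit3 above Ifit3b by 6.38-fold and 7.56-fold, beside 6.47-fold and 8.68-fold in the gene tables.

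Ifit1, Ifit3, Ifit3b and Ifit1bl2 each have a single annotated transcript, so the annotation alone gives it all reads of the gene. The annotated transcript of Ifit1 has 2 exons and 2656 bases, that of Ifit3 2 exons and 1745 bases, and that of Ifit3b 2 exons and 2000 bases. Ifit1bl2 has 3 exons and 3367 bases. Ifit2 has 2 annotated transcripts, and Ifit2-201 (3 exons, 3818 bases) held 99.87% of its TPM in replicate 1 and 99.96% in replicate 2. The shorter Ifit2-202 received 17 counts and 3.12 counts. All these transcripts are annotated as protein-coding, and the last exon held 87.8% to 98.6% of the bases of the main ones. The tables assign reads to annotated transcripts only, so reads lying wholly in introns were not measured here.

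Ifit1bl1 has 2 transcripts, Ifit1bl1-202 (2200 bases) and Ifit1bl1-201 (2193 bases). They share a last exon of 2133 bases and differ in the first, of 67 bases in Ifit1bl1-202 and 60 bases in Ifit1bl1-201. The distal start, whose upstream sequence is shown with the promoters, belongs to Ifit1bl1-202. That transcript held 80.3% of the gene's TPM in replicate 1 and 73.0% in replicate 2. The other quantification gave it 77.4% and 84.8%. Both put most of the signal on the distal start, but the direction between libraries was opposite, and the assignment SD was 201 counts of 4556 in replicate 1 and 144 of 1129 in replicate 2.

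The 2 libraries were next compared gene by gene as the log2 ratio of replicate 2 over replicate 1, after scaling counts by TMM, a method that centres most genes near no difference. Each side is 1 library, so there is no replicate check and no test. Protein-coding genes whose mean count was 50 or more, 9995 in number, had a median ratio of 0.00, a 10th percentile of −0.55 and a 90th of 0.43. Ifit2 had a ratio of −0.54 (95% counting interval −0.55 to −0.52), Ifit1 −0.62 (−0.66 to −0.57) and Ifit3 −0.68 (−0.71 to −0.65). Ifit3b was at −1.10 (−1.18 to −1.02) and Ifit1bl1 at −1.60 (−1.68 to −1.52). Ifit1bl2, with few counts, was at −0.30 with an interval from −1.12 to 0.47, which holds 0. The other quantification, which gave it more counts, put Ifit1bl2 at −1.16, outside that interval, so its ratio depended on the quantification.

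All 5 members at that count were lower in replicate 2, where 49.5% of protein-coding genes were. Their median was −0.68. More than 2-fold lower were 2 of the 5, Ifit3b (2.14-fold) and Ifit1bl1 (3.03-fold), against 2.56% of protein-coding genes. In the other quantification all 6 members averaged 50 or more counts, and 2 of the 6 were more than 2-fold lower, against 2.21% of protein-coding genes. These were Ifit1bl1 and Ifit1bl2 (2.23-fold), while Ifit3b stood at −0.99. That quantification gave ratios of −0.59 for Ifit2, −0.78 for Ifit1, −0.74 for Ifit3 and −1.71 for Ifit1bl1. The direction depended on scaling for the higher members. By the TPM of the other quantification as deposited, Ifit1 (0.015), Ifit2 (0.21) and Ifit3 (0.042) were not lower in replicate 2, on a scale that moved the median protein-coding gene by 0.71. Starting RNA was 1 µg for replicate 1 and 500 ng for replicate 2, and its part in these ratios cannot be told apart from other differences between the libraries.

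A difference between members does not depend on scaling. Minus the ratio of Ifit2, the log2 ratio was −0.08 for Ifit1, −0.14 for Ifit3, −0.56 for Ifit3b and −1.06 for Ifit1bl1. The other quantification gave −0.19, −0.15, −0.40 and −1.12. In both, Ifit1, Ifit2 and Ifit3 lay within 0.19 of each other and Ifit1bl1 was lowest of the 5. Summed with its near-identical copy, Ifit3 plus Ifit3b stood at −0.73, and the less alike Ifit1bl1 and Ifit1bl2, summed, at −1.59.

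**Figure D4:**
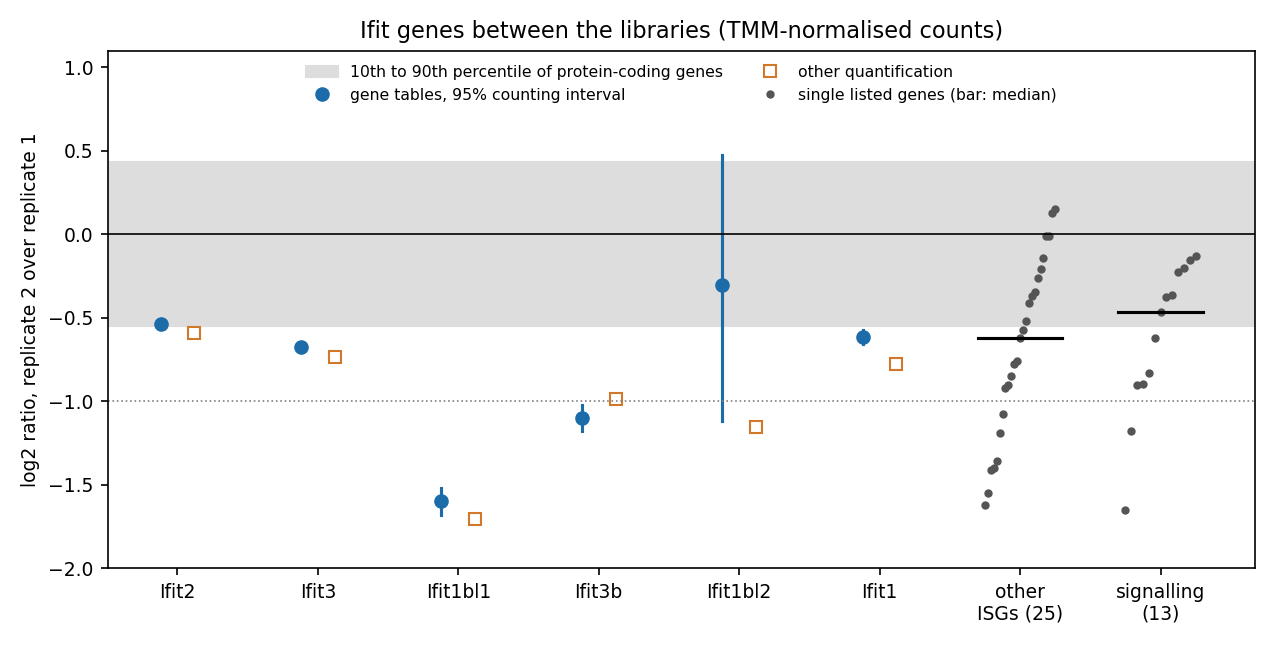
Log2 ratio of TMM-normalised counts, replicate 2 over replicate 1, for each Ifit gene in the gene tables (blue, with 95% counting interval) and in the other quantification (open squares). Black points are single genes of the lists of other interferon-stimulated genes (ISGs) and of interferon signalling, with a bar at their medians of −0.62 and −0.47; grey shows the range from the 10th to the 90th percentile of protein-coding genes (−0.55 to 0.43), and the dotted line is 2-fold lower.

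The cluster was bounded by genes of other kinds. Within 300 kb of it lay 19 annotated genes, 7 of them protein-coding, and 2 reached a TPM of 1 in both libraries. Lipa, the lysosomal acid lipase, is on the minus strand and starts 23.2 kb before Ifit2. It stood at 92.6 TPM in replicate 1 and 131 in replicate 2, a log2 ratio of 0.25. Fas, a death receptor 223 kb before the cluster, was at 2.96 and 2.83 TPM, a ratio of −0.18. Slc16a12, 18.4 kb after Ifit1, had 0 counts in both libraries. The next coding gene beyond Ifit1 was thus without reads, while Lipa before Ifit2 had a mean of 112 ± 26.9 TPM (SD, n = 2) beside 125 ± 22.5 for Ifit1. A pseudogene inside the cluster, AC016791.2, received 3 and 5 counts.

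Of 14 genes that act before the Ifit genes in interferon signalling, 13 were detected, at a median of 41.5 TPM. Irf7, which amplifies interferon production, stood at 421 TPM in replicate 1 and 219.9 in replicate 2. Stat2 was at 231 and 194 TPM. Irf9, named for its place in ISGF3 after its values were seen, was lower at 22.9 and 23.2 TPM. Ifnb1, which encodes interferon-β, was the lowest of the list, with 64 and 10 counts and 3.02 and 0.680 TPM, and passed the limits in replicate 1 only. Thus Stat2 stood within the range of Ifit1 to Ifit3, and the gene of the ligand was near the detection limit.

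Between libraries, the 13 signalling genes with 50 or more counts on average had a median ratio of −0.47, and all 13 were below 0. Of these 2 were more than 2-fold lower in replicate 2, Socs1 (−1.65), a feedback inhibitor of JAK kinases, and Irf7 (−1.18), and 0 were more than 2-fold higher. Stat2 was at −0.47.

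Among other interferon-stimulated genes, all 25 listed were detected, at a median of 116 TPM. Their levels spanned those of the 5 detected Ifit genes. Rsad2 (viperin, an antiviral enzyme) was at 1037 and 584 TPM, Mx1 (a dynamin-like antiviral GTPase) at 716 and 424, and Oasl2 at 326 and 353. Isg20, an exonuclease, was the lowest at 26.8 and 12.2 TPM. The median ratio of the 25 was −0.62, with 23 below 0, 7 more than 2-fold lower in replicate 2 and 0 more than 2-fold higher. Isg15, a ubiquitin-like modifier, had the lowest ratio at −1.62, followed by Bst2 (tetherin) at −1.55, beside −1.60 for Ifit1bl1. Oasl2 at −0.14 lay near the median of all genes.

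Of 6 genes that build and methylate the cap, the structure that Ifit1 reads, 5 were detected, at a median of 10.4 TPM. Cmtr1, which methylates the ribose of the first transcribed nucleotide, led at 34.0 TPM in replicate 1 and 27.9 in replicate 2. Rngtt, which adds the guanosine of the cap, was at 9.88 and 17.3, and Rnmt, which methylates that guanosine, at 9.79 and 14.0. Cmtr2, which acts on the neighbouring nucleotide, was at 0.890 and 1.13 TPM and missed the limit in replicate 1. The median ratio of this list was −0.04, with none past 2-fold. Cmtr1 stood apart from it at −0.60, beside −0.62 for Ifit1, while Rngtt was at 0.40. In the other quantification Cmtr1 was at −0.51, Ifit1 at −0.78 and Rngtt at 0.26.

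Sensors of foreign RNA and related genes were all detected, 11 of 11, at a median of 43.5 TPM. Ddx58 (RIG-I) was at 121 and 90.9 TPM, Zbp1, a sensor of Z-form nucleic acid, at 110.2 and 95.9, and Dhx58 (LGP2) at 65.0 and 62.9. Mavs, the adaptor of RIG-I, was the lowest by its mean over the libraries, at 7.04 and 7.87, though not the lowest in replicate 1. The median ratio was −0.30, with none past 2-fold. Markers of macrophages, summed, were at 2643 TPM in replicate 1 and 2506 in replicate 2, beside 1396 and 1053 for the Ifit genes. Their median ratio was −0.27, all 9 were below 0, and 1 was more than 2-fold lower in replicate 2. A ratio below 0 was thus not particular to the Ifit genes.

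Genes closest to each member in level and in ratio were found by their distance in log2 mean TPM and log2 ratio, over these 2 libraries only. For Ifit1 these were Plxnb2, Ms4a6c and Znfx1, with Plxnb2 at 142 and 106 TPM. For Ifit2 they were Rsrp1, Tmsb4x and Ctss, and for Ifit3 they were Itm2b, Adgre1 and Vmp1. Ifit3b was nearest to Parp10, Tap2 and Cd72, and Parp10 was at 67.6 and 35.6 TPM. For Ifit1bl1 the nearest, Tlr9, Prdx5 and Nfkbia, were farther off, at distances of 0.35 to 0.38, against 0.03 for Parp10 and Ifit3b.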

How the data were processed

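Nuclear RNA of 1 group (2 libraries) was quantified by the authors for mm10 with GENCODE M21, per the deposited file descriptions. The gene tables and the transcript tables beside them, derived from a transcriptome alignment, hold an expected count, a TPM and, for transcripts, the percent of the gene's TPM, per the file headers. The authors also deposited an SD of the count, used as a signal of assignment error. Their deposited TPM bounds lie around a separate posterior mean TPM, not around the TPM given here. For Ifit2 in replicate 1 the bounds were 663 to 672, with a posterior mean of 668, beside 689 TPM. The other quantification, which the authors made straight from reads with an index, gives each transcript an estimated count and a TPM, here summed per gene. The authors scaled TPM over all targets, so the TPM of a gene depends on what else is counted. What moved it between libraries was not tested. Not given in the sources used here were quantifier, aligner, versions and strandedness.

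Entries that name no gene (26345 in the tables, 1.06% and 0.245% of counts in replicates 1 and 2) were left out. Expected counts were rounded, TMM factors (edgeR 4.0.16, R 4.3.3) used genes averaging 10 or more counts and were 0.945 and 1.06, and 0.5 was added to counts in ratios. DESeq2 1.42.0 size factors were an alternative. Ratio intervals are exact 95% conditional binomial intervals of counting error only, and the ratio script was tested on simulated counts. Coding sequences and promoter windows were aligned with Biopython 1.88. Detection needed a TPM of 1 and a count of 10 in both libraries. With 1 group there is no contrast between conditions, no test was made, and replicates had no counterpart to pair with.

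The members, lists and thresholds were chosen with earlier results of these data known. Named were all members, neighbours reaching a TPM of 1 in both libraries, the 3 highest and the lowest gene of each list with up to 2 past 2-fold, and the 3 genes nearest each member averaging 50 or more counts. A gene that this rule takes is not reported here. Irf9, the neighbour Slc16a12 and the pseudogene AC016791.2 were named outside the rule, after their values were seen. Fam103a1 was matched as Ramac through RefSeq synonyms.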

Additional observations from a re-analysis of the deposited data

How the results depend on the processing

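The number of detected members was 5 with either library alone, and 6 at a limit of 1 CPM in place of TPM, which Ifit1bl2 also passed. The share of all protein-coding genes passing these changed limits is not given here, so these counts describe the members only. The summed TPM of a single library ran from 1053 to 1396. Its mean was 495 in the other quantification and 5849 when TPM was rescaled over protein-coding genes, so absolute TPM depends on what else is counted. The median ratio of the members was −0.51 by total gene count, −0.43 by TPM as deposited (which moved the median protein-coding gene by 0.24) and −0.78 in the other quantification. By that quantification's TPM as deposited, an alternative added after seeing the data, it was 0.015, with 0 members more than 2-fold lower, and the ratios turned to 0.015 for Ifit1, 0.21 for Ifit2 and 0.042 for Ifit3, while the median protein-coding gene moved by 0.71. Among the 5 members averaging 50 or more counts in the gene tables, the number more than 2-fold lower was 1 in place of 2 by total gene count, by TPM as deposited, in the other quantification, by its TPM relative to the protein-coding median (also added later), and with Ifit3 and Ifit3b summed and Ifit1bl1 and Ifit1bl2 summed. That 1 was Ifit1bl1, in the last case with Ifit1bl2 added. Of all alternatives here, a share of protein-coding genes past 2-fold is given only for the other quantification, 2.21%. Ifit1bl2, outside those 5, was itself at −1.16 in the other quantification and −1.06 by its TPM relative to that median. The ISRE count was 3 in place of 5 genes within 100 bases of a start. Of the other comparisons of single members and transcript shares, 84 stayed within the error. A further 33 moved beyond it with no change of direction. For shares the error was the SD between the 2 libraries, which leaving out a library cannot exceed. Those comparisons were thus fixed in advance, and the 84 does not measure how stable the results are. A ratio between libraries gives no value without a replicate, and 36.1 and 24.0 counts limit what can be said of Ifit1bl2. No paired analysis was possible because the labels hold only 1 group.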
